A study of Rattus norvegicus with 12 samples.

Results

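Renal gluconeogenesis and fructose metabolism were followed here through 9 genes of the rat renal cortex: Pck1, Pck2, G6pc1, Fbp1, Pc, Mdh1, Slc37a4, Gckr and Khk. The members were found by matching the RefSeq transcript assigned to each non-control probe of the array to these symbols. That gave 17 probes of 61657, and 9 of the 15278 symbols on the array. Gckr and Mdh1 had 1 probe, Pck2 had 3 and each of the others had 2. All 17 probes were well above background on all 12 arrays, and none was saturated.

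Expression was measured with one-colour Agilent microarrays on total RNA of renal cortex from 12 male Sprague-Dawley (Crl:CD(SD)) rats, purchased at 5 weeks of age, with 1 array per rat. Vehicle rats received water, and treated rats received tert-butyl alcohol (TBA, an industrial solvent, spelled tert-butyl alchol in the labels) at 1000 mg/kg/day, each for 4 weeks. The route of dosing is not given in the sources used here. Rats were bled 24 h after the last dose under inhaled CO2-O2 (4:1) or under isoflurane, which gave 4 groups of 3 rats: vehicle under CO2-O2, TBA under CO2-O2, vehicle under isoflurane and TBA under isoflurane. All 4 groups shared strain, sex, diet and age, and the labels name no allele. TBA and vehicle rats can be compared under each gas, and the gases within a treatment. The labels do not say whether the rats under CO2-O2 and those under isoflurane came from the same experiment.

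The kidney cortex makes glucose in the proximal tubule, chiefly from lactate, glutamine and glycerol. Pyruvate carboxylase (Pc) makes oxaloacetate in mitochondria, malate dehydrogenase (Mdh1 in the cytosol) serves the malate shuttle that carries it out, and phosphoenolpyruvate carboxykinase (Pck1 in the cytosol, Pck2 in mitochondria) makes phosphoenolpyruvate. Fructose-1,6-bisphosphatase (Fbp1) and glucose-6-phosphatase (G6pc1), the latter fed by the glucose-6-phosphate transporter of the endoplasmic reticulum (Slc37a4), complete the path to free glucose. Ketohexokinase (Khk) phosphorylates fructose to fructose 1-phosphate, which in liver releases glucokinase from its regulatory protein (Gckr). Cyclic AMP, glucocorticoids, acidosis and insulin are known to regulate Pck1 transcription.

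Values are log2 of the processed spot signal minus the log2 of that array's 75th percentile, so a difference of 1 is a doubling. A gene with several probes is given by its brightest one. Differences are limma estimates with standard errors (SE) and with p-values adjusted by the Benjamini-Hochberg method over all 29603 features tested. A difference was called at an adjusted p under 0.05. Probes differ in how they hybridise, so levels are compared between groups and never between genes.

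Of 12 markers of the S1 and S2 segments of the proximal tubule, 11 were well above background on all 12 arrays. Slc13a3 was so on 11, its spot on the array of vehicle CO2-O2 rat 2 being an outlier that the fit left out. Umod of the thick ascending limb, Aqp2 of principal cells and Alb of hepatocytes were also well above background on all 12. Detection alone therefore does not test the label of renal cortex. Between 61.6% and 71.0% of probes were well above background on an array. Hybridisation was spread over 3 slides: the 3 vehicle rats under CO2-O2 shared slide 1 with the third TBA rat of that gas, its other TBA rats shared slide 2 with vehicle rats under isoflurane, and TBA rats under isoflurane had slide 3 to themselves. Slide 1 had a scan day of its own. Under isoflurane, TBA and slide therefore cannot be told apart. The gases also lay on different slides within vehicle rats and within TBA rats.

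The 250 bases before the start site are shown for the 3 members whose groups stood farthest apart, Pck1, G6pc1 and Gckr, because cyclic AMP and nuclear receptor sites in the first pair are textbook control elements. The sequences are RefSeq's on GRCr8: Pck1 at chr3:182348322-182348571 on the plus strand, G6pc1 at chr10:86807409-86807658 on the plus strand and Gckr at chr6:30795628-30795877 on the minus strand, each read 5′ to 3′ along its gene. Capitals mark matches to the motifs named after the sequences.
Pck1: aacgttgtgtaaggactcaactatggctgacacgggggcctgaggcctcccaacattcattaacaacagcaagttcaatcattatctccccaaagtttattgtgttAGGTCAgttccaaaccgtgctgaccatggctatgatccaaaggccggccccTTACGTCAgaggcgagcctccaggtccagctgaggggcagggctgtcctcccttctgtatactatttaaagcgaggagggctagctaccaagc
G6pc1: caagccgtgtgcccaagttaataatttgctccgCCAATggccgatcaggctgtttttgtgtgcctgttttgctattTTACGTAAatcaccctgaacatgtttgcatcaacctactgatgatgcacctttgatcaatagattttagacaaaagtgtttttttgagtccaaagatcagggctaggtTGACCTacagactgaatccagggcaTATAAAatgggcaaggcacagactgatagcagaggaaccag
Gckr: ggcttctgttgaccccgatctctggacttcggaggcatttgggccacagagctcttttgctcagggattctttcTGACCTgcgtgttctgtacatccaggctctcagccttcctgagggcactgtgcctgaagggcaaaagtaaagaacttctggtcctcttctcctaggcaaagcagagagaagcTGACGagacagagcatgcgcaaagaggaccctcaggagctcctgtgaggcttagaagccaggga

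These motifs were searched on both strands: the cyclic AMP response element TGACGTCA, its variants TTACGTCA and TTACGTAA known from Pck1 and G6pc1, its shorter core TGACG, the E-box CACGTG, the TATA box TATAAA, the CCAAT box CCAAT and the nuclear receptor motif AGGTCA. Pck1 held TTACGTCA at -93 to -86 from the start site, which is present in 0.75% of 33469 rat promoter windows of this length, and AGGTCA at -144 to -139. The core TGACG of Pck1 lies inside that TTACGTCA, on the other strand. G6pc1 held TTACGTAA at -174 to -167 (0.108% of windows), CCAAT at -217 to -213 (34% of windows) and TATAAA at -41 to -36 (12.9% of windows). It also held AGGTCA on the other strand, printed as TGACCT, at -66 to -61. Because TTACGTCA and TTACGTAA were searched as elements known from Pck1 and G6pc1, their matches in these genes were set by that choice. Gckr held TGACG at -64 to -60, a core found in 18.2% of windows, and AGGTCA, again printed as TGACCT, at -176 to -171 (14.1% of windows). TGACGTCA and CACGTG matched in 0 of the 9 windows of the members, against 1.59% and 5.59% of all windows. Of the 9 members 8 had a window, 1 of them (Slc37a4) with 2 starts. A match is a description of letters, and no binding was measured.

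Under CO2-O2, TBA went with more Pck1 and less Gckr RNA. Of the 9 members 1 rose and 1 fell, so 2 were called, where 44 of all 29603 features (0.149%) were, 0.128% higher and 0.0203% lower. The members' median difference was 0.00, beside 0.02 over all features, and 5 of the 9 lay above 0, beside 53.6% of all features. With quantile normalization or median scaling 3 of 9 lay above 0 (medians -0.01 and -0.02). The members were chosen with earlier results of these data known, so their count is a description.

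Pck1, the cytosolic enzyme whose transcription is the classical control point of gluconeogenesis, read 7.35, 7.57 and 7.38 in the 3 vehicle rats under CO2-O2 and 7.92, 7.98 and 7.98 in the 3 TBA rats. Every TBA rat lay above every vehicle rat, and the TBA rats were closely spaced. The rise was 0.53 ± 0.08 on the log2 scale (SE, n = 3 per group; 1.44-fold; 95% confidence interval 0.35 to 0.71; limma adjusted p = 0.0474). The second Pck1 probe read 6.53, 6.77 and 6.55 in vehicle rats and 7.26, 7.29 and 7.18 in TBA rats, a rise of 0.63 ± 0.10 (adjusted p = 0.0496 over all probes). Both probes thus gave groups without overlap and a similar size. The call was near the threshold: it was lost in each of the 12 fits that left out 1 array, at adjusted p between 0.0536 and 0.186, while the difference stayed between 0.48 and 0.60. With slide as a random block the adjusted p was 0.0658, with slide or scan day as a fixed term 0.163, and within slide 1, which held the 3 vehicle rats and 1 TBA rat, 0.329 (a difference of 0.54).

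G6pc1, the catalytic subunit that releases free glucose, read 6.73, 7.10 and 7.07 in vehicle rats and 7.91, 7.64 and 7.50 in TBA rats under CO2-O2. The groups did not overlap, and the TBA rats were more widely spread than for Pck1. The difference of 0.71 ± 0.15 (1.64-fold; 95% confidence interval 0.38 to 1.05) was the largest among the 9 members and did not pass the test (limma adjusted p = 0.107). Its second probe read 3.45, 3.81 and 3.84 in vehicle rats against 4.84, 4.53 and 4.16 in TBA rats, a difference of 0.81 ± 0.20 (adjusted p = 0.145 over all probes). That probe, too, separated the groups without reaching the threshold. Within slide 1 the difference was 0.53 (adjusted p = 0.450).

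Gckr, the glucokinase regulatory protein, read -3.30, -3.13 and -3.21 in vehicle rats and -3.68, -3.65 and -3.75 in TBA rats under CO2-O2. Every TBA rat lay below every vehicle rat. Gckr fell by 0.48 on the log2 scale (SE 0.07; 0.716 times the vehicle level; limma adjusted p = 0.0401). The probe was dim: its median spot signal was 93 to 145.5 units over the 12 arrays, against a local background of 25 to 56, and it is the gene's only probe. With normexp background correction the difference was -0.28 (adjusted p = 0.0950), and within slide 1 it was -0.54 (adjusted p = 0.284). Slide as a random block or as a fixed term, the latter the same as scan day, also ended the call (adjusted p = 0.0541 and 0.0913). The call was kept without vehicle isoflurane rat 1 or TBA isoflurane rat 1 (adjusted p = 0.0386 and 0.0498) and was lost without each of the other 10 rats, at adjusted p up to 0.146.

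The remaining 6 members had no call under CO2-O2. Fbp1, the bisphosphatase, had 9.14, 9.15 and 9.15 in vehicle rats and 9.26, 9.29 and 9.15 in TBA rats, a difference of 0.09 ± 0.06 with overlapping groups (adjusted p = 0.561). With slide or scan day as a fixed term Fbp1 stood at 0.001. Its second probe read 6.07, 6.07 and 6.14 against 6.23, 6.36 and 6.26, so its groups did not overlap (0.19 ± 0.06, adjusted p = 0.236 over all probes). Khk, the fructose kinase, read 8.12, 8.05 and 8.11 against 8.06, 7.99 and 7.93, a difference of -0.10 ± 0.10. Its groups overlapped by 1 pair of rats, and its second probe gave -0.24 ± 0.11 without overlap (adjusted p = 0.387 over all probes). Pck2, Pc, Mdh1 and Slc37a4 lay between -0.06 and 0.02, each within overlapping groups. The sign of Pck2, Pc, Mdh1, Slc37a4 and Khk changed under at least 1 other scaling of the arrays, so no direction is given for these 5. Their 95% confidence intervals reached from -0.31 for Khk up to 0.19 for Slc37a4.

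**Figure D1:**
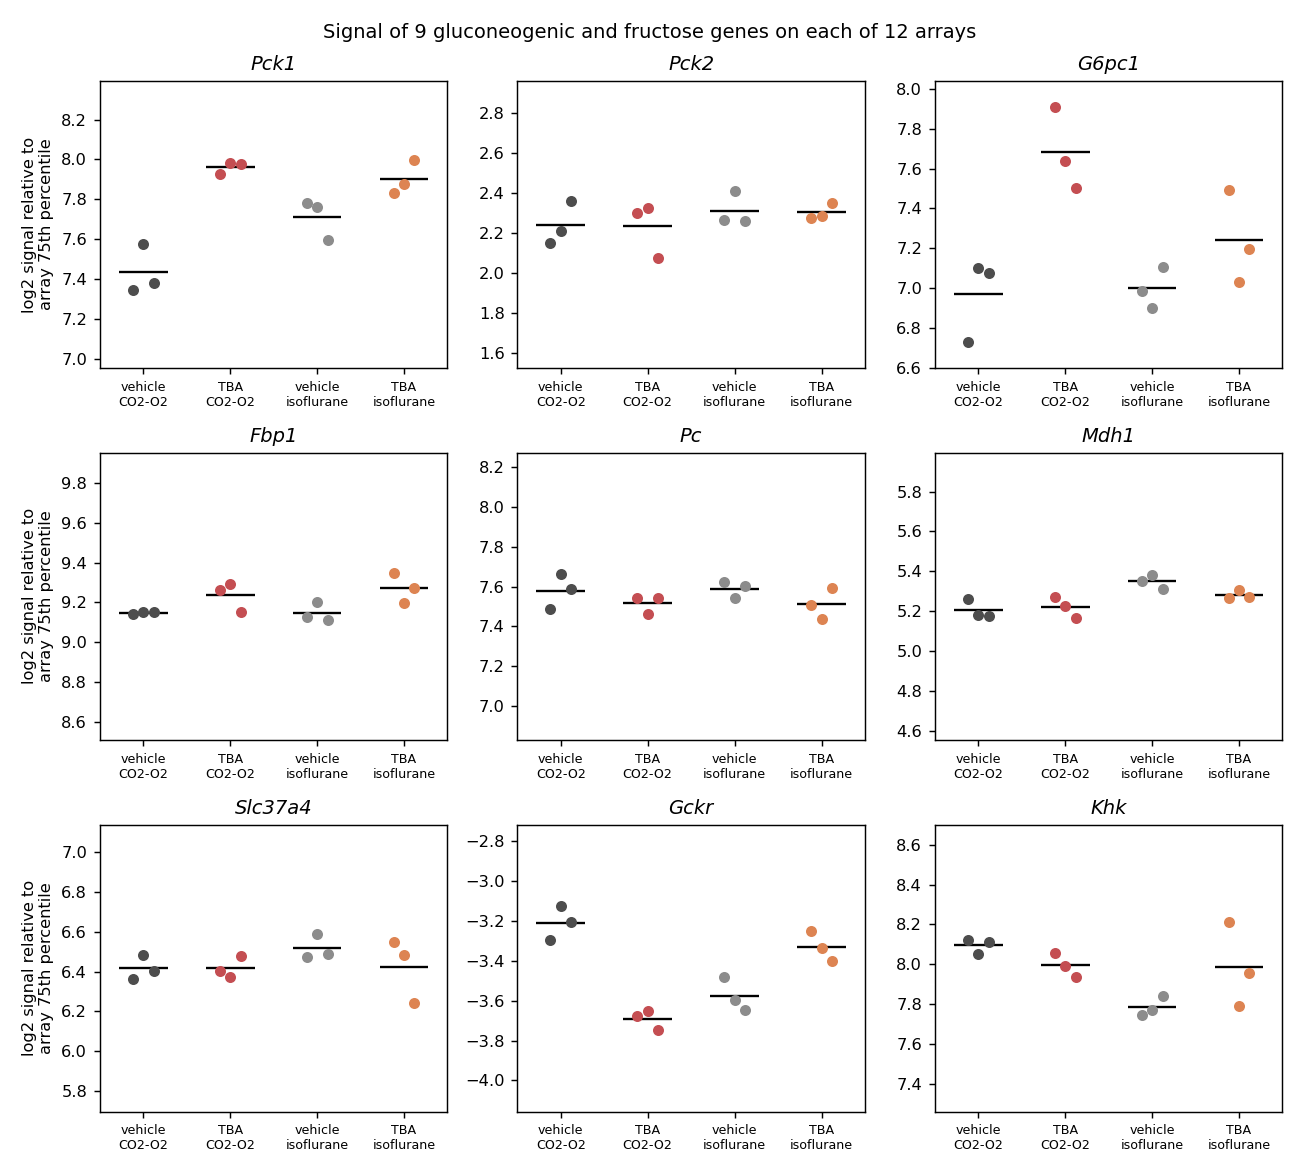
Log2 signal relative to the array's 75th percentile (vertical axis, the same span in each panel) for the brightest probe of each of the 9 genes, in the 4 groups of 3 rats (horizontal axis). Each point is 1 rat and each line a group mean. The group means of Pck1 and G6pc1 were highest in TBA rats under CO2-O2 and that of Gckr was lowest there. Mdh1, Pc and Fbp1 spanned less than 0.24 over all 12 rats.

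Under isoflurane, TBA changed no member past the threshold. With limma 0 of 9 were called, and 2 of 9 had an unadjusted p under 0.05 (Pck1 and Gckr), where 117 of 29603 features (0.395%) were called and 17.8% had such a p. The members' median difference was 0.13, beside 0.02 over all features, with 5 of 9 above 0; with quantile normalization the median was -0.04, with 2 of 9 above 0. With normexp background correction 1 of 9 was called, Gckr (0.27, adjusted p = 0.0453).

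Pck1 under isoflurane read 7.78, 7.76 and 7.60 in vehicle rats and 7.83, 7.88 and 7.999 in TBA rats. The groups did not overlap, by a gap far narrower than under CO2-O2. The difference was 0.19 ± 0.08 (limma adjusted p = 0.255), and with quantile normalization it was -0.04, so its sign rests on the scaling. The second probe read 7.11, 6.99 and 6.87 against 7.09, 7.17 and 7.35, with overlap (0.21 ± 0.10). Over the 4 groups the means ran from vehicle under CO2-O2 (7.43 ± 0.12, SD, n = 3) through vehicle under isoflurane (7.71 ± 0.10) and TBA under isoflurane (7.90 ± 0.09) to TBA under CO2-O2 (7.96 ± 0.03). The last pair of groups overlapped, and the other neighbours did not.

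G6pc1 under isoflurane read 6.99, 6.90 and 7.11 in vehicle rats and 7.49, 7.03 and 7.19 in TBA rats. One TBA rat stood above the rest, and the groups overlapped. The difference was 0.24 ± 0.15 (limma adjusted p = 0.438), and 0.10 ± 0.20 with the second probe. The group means were 6.97 ± 0.21 (SD, n = 3) and 6.999 ± 0.104 for vehicle under CO2-O2 and isoflurane, 7.24 ± 0.23 for TBA under isoflurane and 7.68 ± 0.21 for TBA under CO2-O2. Only the TBA CO2-O2 group was clear of its neighbour, at 7.50 against 7.49 for the closest rats.

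Gckr under isoflurane read -3.48, -3.59 and -3.65 in vehicle rats and -3.25, -3.34 and -3.40 in TBA rats. Here every TBA rat lay above every vehicle rat, opposite to the order under CO2-O2. The difference was 0.25 ± 0.07 (1.19-fold, limma adjusted p = 0.126). The 4 group means ran from -3.69 ± 0.05 (SD, n = 3) in TBA under CO2-O2 and -3.57 ± 0.09 in vehicle under isoflurane to -3.33 ± 0.07 in TBA under isoflurane and -3.21 ± 0.09 in vehicle under CO2-O2. The upper pair of groups overlapped, and the closest rats of the lower pair both read -3.65.

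Among the other members under isoflurane, Khk read 7.75, 7.77 and 7.84 in vehicle rats and 8.21, 7.79 and 7.96 in TBA rats, a difference of 0.20 ± 0.10 (adjusted p = 0.311). The highest value was 1 TBA rat's, and the groups overlapped. Fbp1 read 9.13, 9.20 and 9.11 against 9.35, 9.20 and 9.27 (0.13 ± 0.06, adjusted p = 0.320), and its second probe read 6.21, 6.28 and 6.19 against 6.49, 6.35 and 6.37, without overlap (0.18 ± 0.06, adjusted p = 0.176 over all probes). Under quantile normalization the Fbp1 and Khk differences were -0.06 and -0.03. Mdh1 read 5.35, 5.38 and 5.31 against 5.27, 5.30 and 5.27, a difference of -0.07 ± 0.05 without overlap (adjusted p = 0.554). Pc, Slc37a4 and Pck2 stood at -0.08, -0.09 and -0.01, within overlapping groups. Of the 9 members, 3 had groups without overlap under each gas, beside 20.9% of all features under CO2-O2 and 24.0% under isoflurane.

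**Figure D2:**
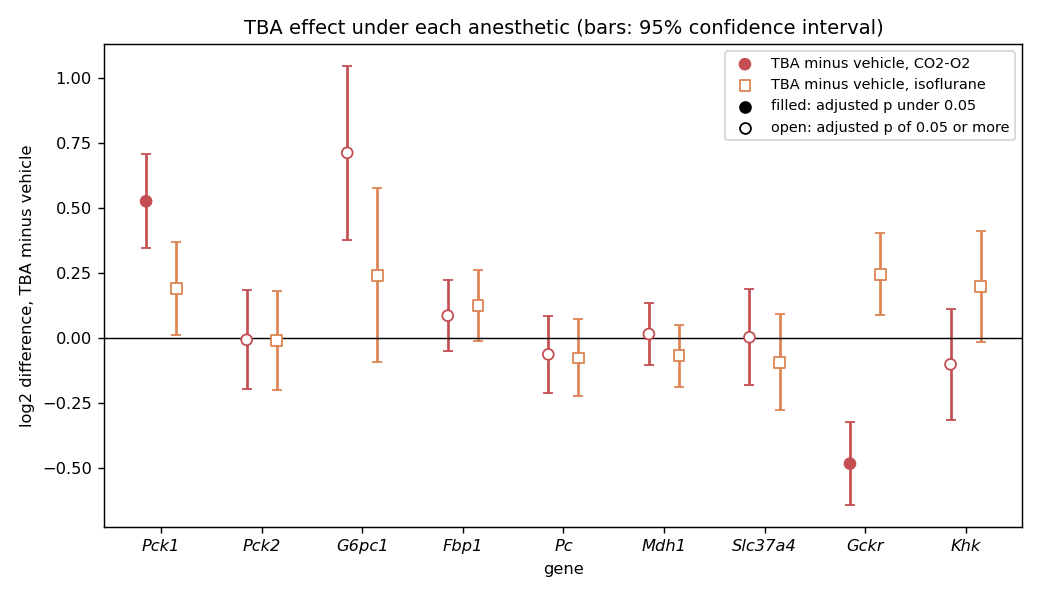
Log2 difference of TBA minus vehicle (vertical axis) for each of the 9 genes (horizontal axis), under CO2-O2 (circles) and isoflurane (squares), with 95% confidence intervals; filled symbols have a limma adjusted p under 0.05. Pck1 at 0.53 and Gckr at -0.48 under CO2-O2 are filled, and no difference under isoflurane is.

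Averaged over both gases, TBA raised Pck1 alone among the members. It rose by 0.36 ± 0.06 (1.28-fold, limma adjusted p = 0.0257), and 1 of 9 members was thus called, where 558 of 29603 features (1.88%) were and 1.40% rose. The second Pck1 probe rose by 0.42 ± 0.07 (adjusted p = 0.0264 over all probes). G6pc1 stood at 0.48 ± 0.11 (adjusted p = 0.0525), just outside the threshold, and with its second probe at 0.45 ± 0.14 (adjusted p = 0.125 over all probes). Without TBA CO2-O2 rat 3 it passed (0.52, adjusted p = 0.0418), and with scan day as a term it was 0.39 (adjusted p = 0.206). Fbp1 stood at 0.11 ± 0.04 (adjusted p = 0.223), or 0.18 ± 0.04 with its second probe (adjusted p = 0.0685 over all probes). With quantile normalization its brightest probe stood at 0.001 (adjusted p = 0.993). The other 6 lay between -0.12 for Gckr and 0.05 for Khk. The Pck1 call was kept without vehicle CO2-O2 rat 2, TBA CO2-O2 rat 3, vehicle isoflurane rat 1 or TBA isoflurane rats 1 or 3, and was lost without each of the other 7 rats (adjusted p up to 0.0671). It was also lost with scan day as a term (0.37, adjusted p = 0.0817), with quantile normalization (0.22, adjusted p = 0.109) and with no filter on dim probes (adjusted p = 0.0780).

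Markers of the S1 and S2 proximal tubule stood at different levels in the same rats. The summed signal of the 11 listed genes measured on all 12 arrays, in multiples of each array's 75th percentile, was 976.7 to 1076 in vehicle and 1097 to 1224 in TBA rats under CO2-O2, and 1014 to 1120 and 1232 to 1331 under isoflurane. Of the 12 listed genes 10 lay above 0 under each gas (medians 0.21 and 0.23), beside 53.6% of all features under CO2-O2. With quantile normalization the median under isoflurane was 0.01, with 8 of 12 above 0. Groups without overlap were higher with TBA for 7 of 12 under each gas, and lower for 1 under CO2-O2. In either direction, 20.9% of all features had such groups under CO2-O2 and 24.0% under isoflurane. Averaged over the gases, limma called 2 of 12 higher and none lower, and 9 had an unadjusted p under 0.05. Over all features 1.40% were called higher and 19.0% had such a p. Summed markers of the S3 segment (9 of 10 listed genes) were 850.5 to 937.8 in vehicle and 635.3 to 880.7 in TBA rats under CO2-O2, and 604.2 to 697.7 and 580.9 to 943.4 under isoflurane. Of these 9 genes 4 lay above 0 under CO2-O2 (median -0.16, 1 lower without overlap). Under isoflurane 8 did (median 0.27, 4 higher without overlap), or 7 with quantile normalization (median 0.13). With limma 0 were called under either gas, and 4 had an unadjusted p under 0.05 under isoflurane, beside 17.8% of all features. The part of either segment's markers in the rise of Pck1 was not tested. In RNA from whole cortex, fewer cells of a type and less RNA per cell cannot be told apart.

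Gckr and the gluconeogenic genes are also liver genes, so markers of hepatocytes were summed. The sum over 7 of 8 listed genes was 4.31 to 9.94 in vehicle and 2.30 to 8.11 in TBA rats under CO2-O2, and 7.14 to 14.8 and 3.45 to 11.1 under isoflurane. Each of these 7 genes was well above background on all 12 arrays with at least 1 probe. Cyp7a1, a gene that defines hepatocytes, was not well above background on any array. The ranges overlapped between vehicle and TBA rats under both gases, while the median rat was at 9.39 in vehicle and 3.09 in TBA rats under CO2-O2 and at 14.1 and 6.48 under isoflurane. Of the 7 genes, 5 lay below 0 with TBA under each gas, with median differences of -1.18 and -0.76. Averaged over the gases the median was -0.97, and with limma 0 of 7 passed the threshold and 4 had an unadjusted p under 0.05. Their part in the Gckr values was not tested.

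The difference between the TBA effects under the 2 gases was tested as an interaction. With limma 0 of 29603 features passed (0%), while 3578 (12.1%) had an unadjusted p under 0.05, and 2 of the 9 members did. For Gckr the effect under isoflurane exceeded that under CO2-O2 by 0.73 ± 0.10 (95% confidence interval 0.50 to 0.95; unadjusted p = 2.91e-05, adjusted p = 0.116). Its groups were apart in opposite directions under the 2 gases, an arrangement shared by 473 of 29603 features (1.60%). For Pck1 the interaction was -0.34 ± 0.11 (adjusted p = 0.318), for G6pc1 -0.47 ± 0.21 and for Khk 0.30 ± 0.14 (adjusted p = 0.414 for both). The effects of TBA on Pck1 and G6pc1 under the 2 gases are thus not shown to differ, although Pck1 passed the threshold under CO2-O2 and missed it under isoflurane.

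The choice of gas within vehicle rats gave no call among the members. With limma 0 of 9 passed, beside 31 of 29603 features (0.105%), while 4 of 9 members and 18.7% of all features had an unadjusted p under 0.05. Vehicle rats under isoflurane differed from those under CO2-O2 by -0.36 ± 0.07 for Gckr (adjusted p = 0.0730), -0.31 ± 0.10 for Khk (adjusted p = 0.149), 0.28 ± 0.08 for Pck1 (adjusted p = 0.134) and 0.14 ± 0.05 for Mdh1 (adjusted p = 0.204). By their brightest probes these 4 members had groups without overlap, as did 29.1% of all features. Gckr passed the threshold with normexp, quantile normalization or array weights (adjusted p = 0.0499, 0.0462 and 0.0314), and with slide or scan day as a fixed term it stood at -0.45 (adjusted p = 0.306). The second Khk probe gave -0.28 ± 0.11 and the second Pck1 probe 0.38 ± 0.10, both without overlap. Other probes of Pc, Pck2 and Fbp1 also had groups without overlap, where their brightest probes overlapped. The second Pc probe gave 0.20 ± 0.06 (limma adjusted p = 0.136 over all probes), against 0.01 for the brightest. The other Pck2 probes gave 0.16 ± 0.06 and 0.31 ± 0.14, and the second Fbp1 probe 0.13 ± 0.06. The second probes of G6pc1 and Slc37a4 overlapped. G6pc1 stood at 0.03 ± 0.15. All 3 vehicle CO2-O2 arrays lay on slide 1 and all 3 vehicle isoflurane arrays on slide 2. In the same rats the S3 marker sum was 850.5 to 937.8 under CO2-O2 and 604.2 to 697.7 under isoflurane, with 8 of 9 genes below 0. Markers of some other cells were lower under isoflurane too, namely 4 of 5 of red cells (median -0.49, 4 without overlap). The same held for 6 of 6 of leukocytes (median -0.44, 3 without overlap) and 5 of 5 of fibroblasts (median -0.37, 1 without overlap). Thick ascending limb markers were lower in 7 of 8 (median -0.15, 0 without overlap). Intercalated cell markers went the other way, 7 of 7 being higher (median 0.18, 3 without overlap), among them Slc4a1, which is also the 1 red cell marker that was higher. So did 5 of 6 of principal cells (median 0.14, 1 without overlap) and 9 of 12 of S1 and S2 (median 0.09, 3 without overlap). Hepatocyte markers were higher in 6 of 7 (median 0.30, 0 without overlap). Those of skeletal muscle were higher in 4 of 5 (median 0.20) and those of the distal convoluted tubule in 3 of 4 (median 0.19). Endothelial and podocyte markers were higher in 5 of 7 and 4 of 6 (medians 0.06 and 0.04). With limma none of the markers of S3, red cells, leukocytes or fibroblasts passed the threshold, and 6, 4, 3 and 2 of them, in that order, had an unadjusted p under 0.05. Their part in the members' values was not tested.

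Within TBA rats the gas gave 0 of 9 calls with limma, beside 2 of 29603 features (0.00676%), and 2 of 9 members, as well as 10.8% of all features, had an unadjusted p under 0.05. Gckr was 0.36 ± 0.07 (adjusted p = 0.155) and G6pc1 -0.44 ± 0.15 (adjusted p = 0.333) under isoflurane minus CO2-O2, and both had groups without overlap, as did 15.1% of all features. For G6pc1 the closest rats read 7.50 under CO2-O2 and 7.49 under isoflurane. The second G6pc1 probe gave -0.52 ± 0.20 with overlapping groups (adjusted p = 0.381 over all probes). Pck1 stood at -0.06 ± 0.08. This comparison and the preceding ones share rats: the TBA CO2-O2 rats enter both it and the TBA effect under CO2-O2, and the vehicle CO2-O2 rats enter both that effect and the comparison of gases in vehicle rats. Their values are therefore not independent.

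The probes of Pck1 and of G6pc1 gave like differences under CO2-O2. The brightest and the second probe gave 0.53 and 0.63 for Pck1 and 0.71 and 0.81 for G6pc1. Fbp1 and Khk moved less, at 0.09 and 0.19 for Fbp1 and -0.10 and -0.24 for Khk. For these genes only the second probe had groups without overlap. Pck2, the mitochondrial carboxykinase, had probes that differed: the brightest stood at -0.01 under each gas, and another read 1.55, 1.43 and 1.46 in vehicle and 1.59, 1.59 and 1.56 in TBA rats under CO2-O2. That probe read 1.64, 1.58 and 1.69 in vehicle and 1.45, 1.54 and 1.56 in TBA rats under isoflurane. It was thus higher with TBA under CO2-O2 (0.10 ± 0.06) and lower under isoflurane (-0.12 ± 0.06), without overlap in either (interaction -0.22 ± 0.08, adjusted p = 0.326 over all probes). The third Pck2 probe gave 0.09 ± 0.14 under CO2-O2 and -0.23 ± 0.14 under isoflurane, with overlap in both (interaction -0.32 ± 0.20, adjusted p = 0.539 over all probes). The second Slc37a4 probe gave 0.09 ± 0.09 and -0.18 ± 0.09, also with overlap (interaction -0.28 ± 0.12, adjusted p = 0.390 over all probes). The second probe of Pc read 5.76, 5.79 and 5.81 in vehicle and 5.61, 5.59 and 5.64 in TBA rats under isoflurane, without overlap (-0.18 ± 0.06, adjusted p = 0.173 over all probes), where the brightest gave -0.08.

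**Figure D3:**
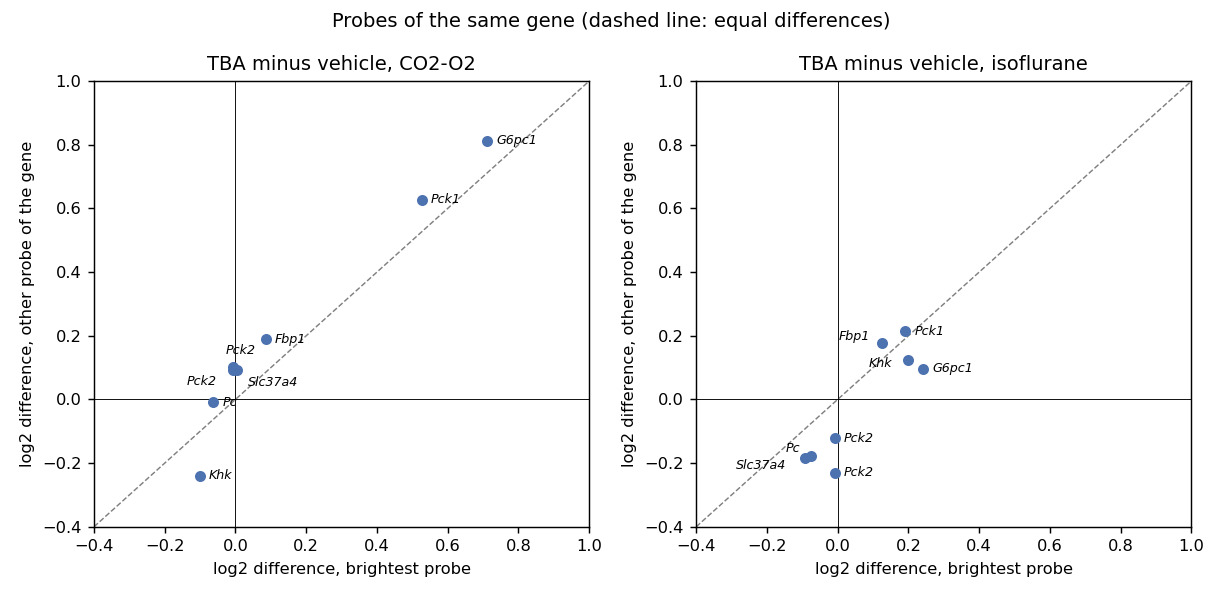
Log2 difference of TBA minus vehicle for the brightest probe of a gene (horizontal axis) and for each other probe of that gene (vertical axis), under CO2-O2 (left) and isoflurane (right); each point is 1 probe and the dashed line marks equal differences. Pck1 and G6pc1 lie up and to the right under CO2-O2, at 0.53 and 0.63 and at 0.71 and 0.81, and no gene lies beyond 0.25 on either axis under isoflurane.

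The other genes of the pathway were described by lists of their roles, with no test of a list. Each count of calls averaged over the gases stands beside 1.40% of all features called higher and 0.490% called lower. Precursor supply, the transporters and enzymes that bring in lactate, amino acid and glycerol carbon, had the most calls. Averaged over both gases 3 of its 20 tested genes described here rose and none fell, with a median of 0.16 beside 0.01 over all features, and 18 of 20 lay above 0 beside 53.9% of all features. Glud1, the mitochondrial glutamate dehydrogenase, rose by 0.63 ± 0.07 (limma adjusted p = 0.00751), and Slc5a12, the apical sodium-lactate cotransporter of the proximal tubule, rose by 0.68 ± 0.08 (adjusted p = 0.00986). Both calls held in each of the 12 fits that left out 1 array and in each of 12 other settings.

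Glud1 read 6.16, 6.34 and 6.28 in vehicle and 6.88, 6.80 and 6.75 in TBA rats under CO2-O2, and 6.27, 5.93 and 5.98 against 6.90, 6.80 and 6.62 under isoflurane. Slc5a12 read 1.58, 1.64 and 1.70 against 2.45, 2.43 and 2.45 under CO2-O2, and 1.79, 1.28 and 1.54 against 1.97, 2.25 and 2.04 under isoflurane. For both genes every TBA rat lay above every vehicle rat under either gas, an arrangement shared with one direction by 1265 of 29603 features (4.27%). Slc5a12 is also 1 of the 12 S1-S2 markers above, so it is not independent of them. The same list held Slc16a1, a monocarboxylate transporter, at 1.05 ± 0.19 (adjusted p = 0.0315). The Slc16a1 call was kept without TBA CO2-O2 rat 3, vehicle isoflurane rat 1 or TBA isoflurane rat 3 and was lost without each of the other 9 (adjusted p up to 0.0817), and with scan day as a term it was lost as well (1.01, adjusted p = 0.123). Under single gases, Slc5a12 rose by 0.80 ± 0.12 under CO2-O2 (adjusted p = 0.0421) and stood at 0.55 ± 0.12 under isoflurane (adjusted p = 0.0751), while Glud1 rose by 0.71 ± 0.10 under isoflurane (adjusted p = 0.0363) and stood at 0.55 ± 0.10 under CO2-O2 (adjusted p = 0.0917). Neither gene's effect differed between the gases by the interaction test (adjusted p = 0.581 for Slc5a12 and 0.692 for Glud1). The single-gas calls were each kept without 2 of the 12 arrays and lost without any of the other 10: Slc5a12 kept its call without vehicle isoflurane rats 1 or 2 (adjusted p otherwise up to 0.169), and Glud1 without TBA CO2-O2 rat 3 or vehicle isoflurane rat 1 (adjusted p otherwise up to 0.116). Slide as a random block ended both (adjusted p = 0.0589 for Slc5a12 and 0.0708 for Glud1), and slide or scan day as a fixed term ended that of Slc5a12 (adjusted p = 0.166).

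Among the genes of fructose and polyol handling, 1 of 8 rose on average over the gases and none fell, with a median of -0.04. Slc2a2, the basolateral transporter of glucose and fructose known as GLUT2, read 3.01, 3.42 and 3.21 in vehicle and 4.18, 3.97 and 4.12 in TBA rats under CO2-O2, and 3.81, 3.79 and 3.502 against 3.98, 4.04 and 3.80 under isoflurane. The CO2-O2 groups were widely apart and the isoflurane groups overlapped. Slc2a2 rose by 0.88 ± 0.12 under CO2-O2 (1.84-fold, limma adjusted p = 0.0340) and by 0.56 ± 0.09 on average (adjusted p = 0.0232), and stood at 0.24 ± 0.12 under isoflurane (adjusted p = 0.344; interaction -0.64 ± 0.17, adjusted p = 0.258). The CO2-O2 call was kept without TBA CO2-O2 rat 3 or vehicle isoflurane rats 1 or 3 and was lost without each of the other 9 (adjusted p up to 0.146). It was lost with slide or scan day as a fixed term (0.91, adjusted p = 0.125) and within slide 1 (adjusted p = 0.294). The averaged call was lost without vehicle CO2-O2 rats 1 or 3, TBA CO2-O2 rat 1, vehicle isoflurane rat 3 or TBA isoflurane rat 2 (adjusted p up to 0.0624) and with scan day as a term (0.58, adjusted p = 0.0787).

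Of 13 genes of the sugar phosphate steps shared by glycolysis and gluconeogenesis, 1 rose on average and none fell, with a median of 0.06, or -0.02 with quantile normalization. Gapdh, glyceraldehyde-3-phosphate dehydrogenase, rose by 0.24 ± 0.05 (limma adjusted p = 0.0437). It is often used as a reference gene. Its call was kept without TBA CO2-O2 rat 3 or TBA isoflurane rat 3, lost without each of the other 10 (adjusted p up to 0.109), and its value was 0.12 with quantile normalization (adjusted p = 0.203). Slide as a random block and scan day as a term ended it too (adjusted p = 0.0560 and 0.137). Of the 14 tested genes of irreversible glycolysis, the hexokinases, phosphofructokinases, pyruvate kinases and their regulators, limma called 0 on average (1 at an unadjusted p under 0.05, beside 19.0% of all features), with a median of 0.08 and a range of -0.24 to 0.32. Of 13 glycogen genes it called 0 on average (5 at an unadjusted p under 0.05), with a median of -0.03.

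**Figure D4:**
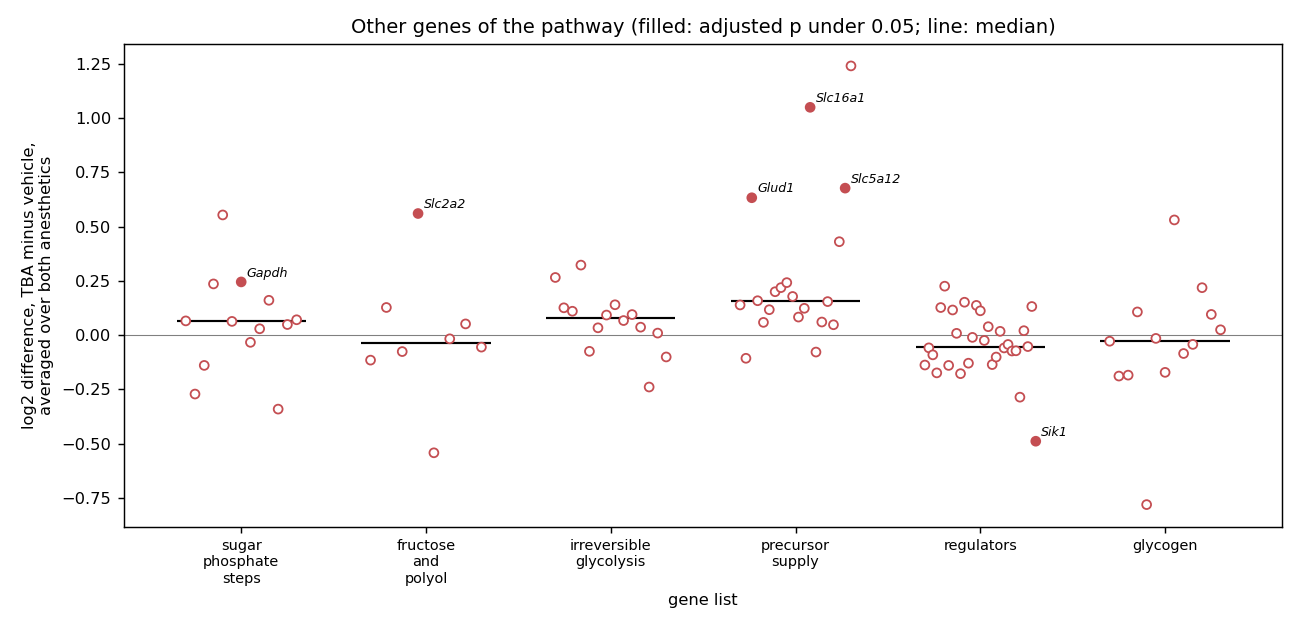
Log2 difference of TBA minus vehicle averaged over both gases (vertical axis) for the genes of the 6 pathway lists (horizontal axis); each point is 1 gene, filled where the limma adjusted p is under 0.05, and lines are list medians. Precursor supply has 3 filled points between 0.63 and 1.05, Sik1 at -0.49 is the only filled point below 0, and irreversible glycolysis and glycogen have none.

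Of 29 regulators, 1 fell on average and none rose, with a median of -0.05. Sik1, a kinase induced by cyclic AMP that restrains CREB coactivators, read -1.01, -0.65 and -0.89 in vehicle and -1.54, -1.78 and -1.51 in TBA rats under isoflurane. Under CO2-O2 it read -1.59, -1.82 and -1.72 in vehicle and -2.03, -1.76 and -1.99 in TBA rats. The vehicle isoflurane rats stood above all the others. Sik1 fell by 0.76 on the log2 scale under isoflurane (SE 0.12, limma adjusted p = 0.0363) and by 0.49 on average (SE 0.08, adjusted p = 0.0292), and it was the only gene of the 6 lists called between gases in vehicle rats (0.87 ± 0.12 for isoflurane minus CO2-O2, adjusted p = 0.0366). The call under isoflurane was kept without TBA CO2-O2 rats 2 or 3 or vehicle isoflurane rat 1 (up to 0.116 otherwise). The call between gases was kept without TBA CO2-O2 rats 2 or 3 (up to 0.166 otherwise). The averaged call was kept without 6 arrays, namely vehicle CO2-O2 rat 2, TBA CO2-O2 rats 2 or 3, vehicle isoflurane rat 1 and TBA isoflurane rats 1 or 3, and reached an adjusted p of 0.0732 without another. Vehicle rats of the 2 gases lay on different slides and scan days, and the call between gases was lost with slide as a random block (adjusted p = 0.0764) and with slide or scan day as a fixed term (0.77, adjusted p = 0.305). The call under isoflurane was lost with slide as a random block (adjusted p = 0.0745), and the averaged call with scan day as a term (-0.52, adjusted p = 0.0877).

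Ppargc1a, the coactivator that induces Pck1 and G6pc1 in fasted liver, read -0.34, -0.28 and -0.28 in vehicle and -0.62, -0.85 and -0.76 in TBA rats under isoflurane. Under CO2-O2 it read -0.68, -0.83 and -0.67 in vehicle and -0.45, -0.40 and -0.44 in TBA rats. The groups were apart in opposite directions under the 2 gases. Ppargc1a fell by 0.44 under isoflurane (SE 0.07, limma adjusted p = 0.0433), stood at 0.30 ± 0.07 under CO2-O2 (adjusted p = 0.138), and had an interaction of -0.74 ± 0.10 (adjusted p = 0.116). Its call was lost in each of the 12 fits that left out 1 array (adjusted p 0.0516 to 0.141), with slide as a random block (0.0851) and with scan day as a term (0.0516).

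The features whose pattern over the 12 rats lay closest to a member were found among 11672 with a symbol, by the root mean square difference of log2 values centred on each gene's mean. For Pck1 these were Or4d6 (0.0979), Tmem51 (0.0992) and Adgrf5 (0.1001), where a flat gene would stand at 0.219. For G6pc1 they were Mamdc4 (0.141), Phkg1 (0.146) and Sirt3 (0.170), against 0.326 for a flat gene. For Gckr they were Ttc22 (0.104), Ly6al (0.115) and Prdx1 (0.116), against 0.201. Features chosen this way share the member's differences between groups by choice, so no test is given for them. The distances are a description over rats of 4 groups that share slides.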

How the data were processed

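One Cy3-labelled array was run per rat. The deposited scanner files hold spot intensity from Agilent Feature Extraction 10.7 (per the submitters' processing notes; 10.7.1.1 per the file headers), background-subtracted within an array and not scaled between arrays. The submitters' deposited series table is a linear ratio of that intensity to the array's 75th percentile, a scale found from the values. Its columns each equal a different rat's scanner file within the right group, so it served only as an alternative. The number of arrays limits the precision.

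Probe accessions, without versions, were matched to RefSeq symbols of GRCr8: 27447 of 61657 probes had 1 symbol and 34210 had none. A probe was kept if it was well above background on every array of some group (40216 probes), and the brightest probe stood for a symbol, leaving 29603 features. Group means were fitted over all 12 arrays with limma 3.58.1 in R 4.3.3, without covariates (8 residual and 1.89 prior degrees of freedom), and p-values took a Benjamini-Hochberg adjustment. The fit was tested on simulated data. Alternatives covered background correction, scaling, filters, probe summaries, slide, scan day, replicate number, spread estimates and each array left out.

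Genes were named by a rule: the 9 members with all probes, up to 4 called genes per pathway list and comparison, Glud1 and Slc5a12, and the 3 features closest to Pck1, G6pc1 and Gckr. Some genes of the lists are not reported here. The members and lists were chosen with earlier results of these data known.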

Additional observations from a re-analysis of the deposited data

Results flagged for a closer look

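For Gckr, the TBA and vehicle rats were apart under both gases but in opposite directions, and the TBA effect under isoflurane exceeded that under CO2-O2 by 0.73 on the log2 scale (limma adjusted p = 0.116 for the interaction). One of the 3 Pck2 probes, not the brightest, also had groups apart in opposite directions, higher with TBA under CO2-O2 and lower under isoflurane, with an interaction of -0.22 (adjusted p = 0.326 over all probes). Neither difference passed the threshold. The third Pck2 probe had the same signs, 0.09 under CO2-O2 and -0.23 under isoflurane, with overlapping groups. Of all 29603 features, 473 (1.60%) had groups apart in opposite directions.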

How the results depend on the processing

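Of 68 single-gene results, 15 were called, and none of these took the opposite sign in any of their 380 values under other settings; 180 of the 380 stayed past the threshold and 200 did not. Of the 53 uncalled results 26 changed sign under at least 1 setting. The count of the 9 members called under CO2-O2, 2, was 1 with normexp background correction, quantile normalization, median scaling, or a spread trend with robust fitting. It was 0 without a dim-probe filter, with probe means per gene, with slide as a random or fixed term, with scan day as a fixed term, with slide 1 alone, with the replicate block, or with only the arrays compared, and 0 to 1 with 1 array left out. Under isoflurane the count of 0 was 1 with normexp. The averaged count of 1 was 2 with normexp, median scaling, a filter on all 12 arrays, a trend with robust fitting, or array weights. It was 0 with quantile normalization, no filter, scan day as a fixed term, or the replicate block, and 0 to 2 with 1 array left out. Between gases in vehicle rats the count of 0 was 1 with normexp, quantile normalization or array weights. Between gases in TBA rats and for the interaction it was 0 in each setting run. Replicate numbers did not pair the rats: same-numbered rats had deviations that correlated between -0.13 and 0.13 over 18 pairs, and only 3 were over 0.1. With slide as a fixed term, values could be had only for TBA under CO2-O2 and for the gases in vehicle rats. The cause of these shifts was not tested.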
